A study of Danio rerio with 24 samples.

Results

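The genes described here are the heat shock proteins of the Hsp90, Hsp70 and Hsp60 families and the heat shock factors of zebrafish, taken as every row of the count files whose symbol is hsp90aa1.1, hsp90aa1.2, hsp90ab1, hspa8, hsp70l, hspa5, hspd1, hspe1, hsf1 or hsf2. These 10 symbols met 11 of the 32105 Ensembl genes counted, because HSPA8 names a pair of rows (ENSDARG00000037403 and ENSDARG00000068992) in the names tables, and each of these is given by its identifier. The gene hsp90aa1.2 is ENSDARG00000024746, written HSP90AA1 in those tables. All 11 rows passed the filter on low counts at each age.

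The series measured RNA of zebrafish given either PCB126 or its solvent DMSO as embryos. PCB126 is a chlorinated biphenyl that acts, like dioxin, through the aryl hydrocarbon receptor. It holds 24 libraries, 3 biological replicates in each of 8 groups, and asks how a low early dose bears on gene expression then and in the adult brain. The groups are whole embryos 48 hours after fertilization (hpf) that had DMSO or 0.3 nM PCB126, and whole larvae 5 days after fertilization (dpf) and brains of 4-month-old adults, each with DMSO, 0.3 nM or 1.2 nM. All groups shared the embryo medium, and the fish kept to adulthood were moved to clean water after the exposure, so the brains were taken long after the compound was withdrawn from the water. A column kit served for the RNA of the younger fish and another method for that of brains, which separates the brain from the younger ages together with age and tissue. The sources used here do not give strain, sex or any pooling of animals.

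Heat shock proteins are chaperones that fold new proteins and hold damaged ones. Hsp90 works as a dimer with co-chaperones on receptors and kinases, and holds the unliganded aryl hydrocarbon receptor in the cytosol, while Hsp70 proteins take up unfolded chains and pass some clients on to Hsp90. Heat shock factor 1 is the main activator of the stress-induced genes and is itself held inactive by chaperones, and heat shock factor 2, known in mice for its part in brain development, can join it in mixed complexes.

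Counts per library summed to between 12480715 and 23022236. The DMSO brains were the deepest libraries, at 19498374 to 23022236 reads against 13097392 to 15911244 at 0.3 nM and 14394116 to 18043641 at 1.2 nM. Levels are given as CPM, read counts scaled to a common library size with the TMM adjustment and not divided by gene length, so levels are compared between libraries and not between genes. A gene is called changed at an adjusted p under 0.05 in edgeR's quasi-likelihood test over all genes of a comparison, and SE is the standard error of the log2 fold change. The labelled tissues were checked with marker lists: 18 neuronal genes summed to between 7332 and 9164 CPM in the brains, and 14 skeletal muscle genes to between 28726 and 40641 CPM in embryos and larvae. In brains the muscle genes summed to 76.8 to 880 CPM in DMSO, where the highest value belonged to replicate 3. They summed to 45.9 to 77.6 CPM at 0.3 nM and 28.7 to 65.8 CPM at 1.2 nM. Summed astroglial and oligodendrocyte genes (9 genes) were 12968 to 18186 CPM in DMSO brains, 9426 to 11294 CPM at 0.3 nM and 10131 to 12299 CPM at 1.2 nM, without overlap between DMSO and either exposed group. Summed cartilage and connective tissue genes (10 genes) were 392 to 2433 CPM in DMSO brains and 106 to 303 CPM in exposed brains. The 2433 CPM also belonged to DMSO replicate 3, against 523 and 392 CPM in DMSO replicates 1 and 2. Summed immediate early genes (13 genes), which neurons switch on with activity, were 185 to 408 CPM in DMSO brains. The 408 CPM was again in DMSO replicate 3, against 187 and 185 CPM in replicates 1 and 2. These sums were 232 to 423 CPM at 0.3 nM and 307 to 833 CPM at 1.2 nM. Of the 12 immediate early genes tested, 4 were called higher at 1.2 nM and none at 0.3 nM. Neuronal genes were called higher for 4 of 18 at each dose, although the neuronal sums overlapped between DMSO and 0.3 nM brains (7332 to 8828 against 7961 to 8580 CPM) and at 1.2 nM began just under the DMSO maximum (8809 to 9164 CPM). Summed blood genes (5 genes) were 126 to 226 CPM in DMSO brains, 80.1 to 119 CPM at 0.3 nM and 77.2 to 148 CPM at 1.2 nM. Depth and the sums of glial and connective tissue genes moved with exposure at both doses, the blood sum at 0.3 nM, the muscle sum at 1.2 nM, and called neuronal and immediate early genes as given. Their part in the brain results below was not tested. In these bulk samples fewer cells of a type and less RNA per cell cannot be told apart.

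In the adult brain 6 of the 9 chaperone genes and hsf2 fell after embryonic exposure to 0.3 nM, while 2 chaperone genes and hsf2 fell after 1.2 nM. In whole embryos and larvae no member was called against DMSO, but hardly any gene was. The share of all genes called was 0.00987% in embryos, and in larvae 0% at 0.3 nM and 0.0460% at 1.2 nM. At 0.3 nM 7 of the 11 members were called lower in the brain and none rose, where 13.7% of 19548 genes were called, 5.90% lower and 7.82% higher. For 8 of the 11 the 0.3 nM brains did not overlap with DMSO, against 32.6% of all genes. The 7 were hsp90aa1.2, both hspa8 genes, hspa5, hspd1, hspe1 and hsf2, and hsp90ab1, hsp90aa1.1, hsp70l and hsf1 were not called. At 1.2 nM 3 members fell, hsf2, hsp90aa1.2 and hspe1, against 9.05% of genes called, 3.36% lower and 5.69% higher. The 1.2 nM brains did not overlap with DMSO for 6 members, against 35.9% of all genes. Among genes whose mean log2 CPM was 5 or more, a level that 9 members reached, 8.82% were called lower at 0.3 nM and 5.38% at 1.2 nM, and all called members were among those 9. The median log2 difference over the 11 members was -0.49 at 0.3 nM and -0.24 at 1.2 nM, where the medians over all genes were -0.02 and -0.03. Both doses were compared with the same 3 DMSO brains, so the values at the 2 doses are not independent. The share of all genes called moved with single libraries. At 0.3 nM 2683 genes were called, but 1427 without DMSO replicate 1, 1418 without DMSO replicate 3, 960 without 0.3 nM replicate 2 and 971 without 0.3 nM replicate 3. The number rose to 2853 without DMSO replicate 2 and to 3057 without 0.3 nM replicate 1. At 1.2 nM 1769 genes were called, but 462 without DMSO replicate 1, 530 without DMSO replicate 3, and 38, 44 and 13 without 1.2 nM replicate 1, 2 or 3. Without DMSO replicate 2 it was 2263.

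**Figure D1:**
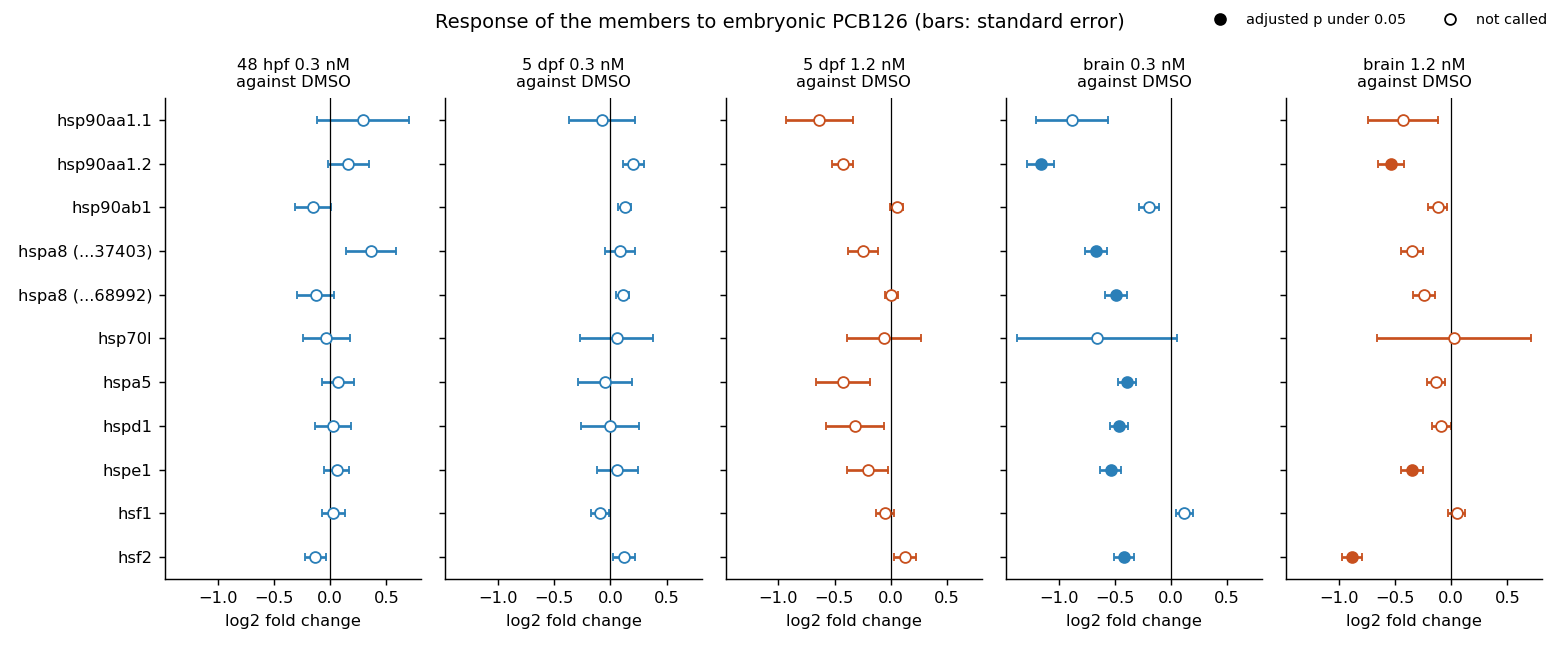
Log2 fold change against DMSO of the same age (horizontal axis) for each of the 11 members (rows), with standard error bars, in embryos, larvae and adult brain. Filled points passed an adjusted p under 0.05 and open points did not. The 7 filled points at 0.3 nM and the 3 at 1.2 nM in brain all lie below 0. No point is filled in the younger fish, where at most 0.0460% of all genes were called against DMSO. The last digits identify the pair of hspa8 genes.

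Among the Hsp90 genes, hsp90aa1.2, one of a pair of alpha genes whose mammalian counterpart is stress-inducible, had the largest called change of the set in brains after 0.3 nM. Its level in the 3 DMSO brains was 243, 208 and 219 CPM, in the brains after 0.3 nM it was 114, 102 and 85.4 CPM, and after 1.2 nM it was 145, 177 and 141 CPM. Each group lay apart from the other two, with DMSO highest and the lower dose lowest. The fall at 0.3 nM was 2.23-fold (log2 fold change -1.16, SE 0.12, edgeR adjusted p = 0.00293), the fourth smallest p among 19548 genes, and it passed under every alternative tried. At 1.2 nM the fall was 1.45-fold (log2 fold change -0.53, SE 0.12, edgeR adjusted p = 0.0286). This second call was lost in 5 of 6 fits that left out 1 library (adjusted p between 0.0573 and 0.109 in those 5), and remained without DMSO replicate 2.

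The beta gene hsp90ab1, the constitutive cytosolic form, differed less between the groups. Its values were 1884, 1841 and 1810 CPM in DMSO brains, 1742, 1497 and 1592 CPM after 0.3 nM, and 1586, 1750 and 1753 CPM after 1.2 nM. Both exposed groups lay below DMSO without overlap, but the differences were small, at -0.20 (SE 0.09, edgeR adjusted p = 0.151) and -0.12 (SE 0.09, 0.386) on the log2 scale, and neither was called. Counted within a library, which removes the library size, there were 12.1 ± 0.798 (SD, n = 3) hsp90aa1.2 reads per 100 hsp90ab1 reads in DMSO brains, 6.22 ± 0.755 after 0.3 nM and 9.10 ± 1.02 after 1.2 nM. The 3 groups did not overlap in this ratio. The ratio depends on gene lengths and can be compared across libraries only.

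The other alpha gene, hsp90aa1.1, known in zebrafish for folding myosin in developing muscle, stood low in the brain. It had 2.81, 5.76 and 7.48 CPM in DMSO brains, 3.45, 2.87 and 2.37 CPM after 0.3 nM, and 3.46, 3.65 and 4.8 CPM after 1.2 nM. DMSO replicate 1 lay among the exposed brains, and DMSO replicate 3, the library with the muscle sum of 880 CPM, was highest. The muscle sums of DMSO replicates 1 and 2 were 111 and 76.8 CPM, and whether hsp90aa1.1 goes with the muscle sum was not tested. The log2 differences were -0.88 (SE 0.32, edgeR adjusted p = 0.0939) at 0.3 nM and -0.43 (SE 0.31, 0.398) at 1.2 nM, and without DMSO replicate 1 the first was -1.19 and was called (adjusted p = 0.0231). The genes hsp90aa1.1 and hsp90aa1.2 are direct neighbours in the RefSeq annotation and close in sequence, and reads that could belong to either make their split uncertain.

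The cytosolic Hsp70 proteins that cells make without stress are encoded by the hspa8 genes, whose product also strips clathrin from vesicles. The gene ENSDARG00000068992 had 1572, 1417 and 1567 CPM in DMSO brains, 1213, 973 and 1056 CPM after 0.3 nM, and 1191, 1356 and 1302 CPM after 1.2 nM. The second gene, ENSDARG00000037403, had 112, 130 and 120 CPM in DMSO brains, 81.2, 68.7 and 77.7 CPM after 0.3 nM, and 104, 95.9 and 83.8 CPM after 1.2 nM. For both genes every exposed brain lay below every DMSO brain. At 0.3 nM the falls were 1.41-fold for ENSDARG00000068992 (log2 fold change -0.49, SE 0.10, edgeR adjusted p = 0.0132) and 1.59-fold for ENSDARG00000037403 (-0.67, SE 0.10, 0.00599). At 1.2 nM the differences were -0.24 (SE 0.10, edgeR adjusted p = 0.141) and -0.35 (SE 0.10, 0.0504), and neither passed. ENSDARG00000037403 at 1.2 nM was called with DESeq2 (adjusted p = 0.0156) and with edgeR without the filter on low counts (0.0452). The call for ENSDARG00000068992 at 0.3 nM was lost without replicate 2 of that group (edgeR adjusted p = 0.0508).

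The hsp70l gene, the heat-inducible Hsp70 whose promoter is used to drive transgenes by heat shock, rested on few reads in every group. Its counts ran from 24 to 185 reads per library, and its level in brains was 6.85, 3.37 and 5.41 CPM in DMSO, 2.30, 5.89 and 1.78 CPM after 0.3 nM, and 2.58, 10.9 and 2.40 CPM after 1.2 nM. The groups overlapped throughout, and the 10.9 CPM of 1 brain at 1.2 nM was the highest value in the series. The log2 differences were -0.65 (SE 0.71, edgeR adjusted p = 0.592) at 0.3 nM and 0.02 (SE 0.68, 0.987) at 1.2 nM, with standard errors too wide to show a change of moderate size. The related hsp70.3 had 1.77 ± 1.04 (SD, n = 3) CPM in DMSO brains and 0.772 ± 0.118 CPM after 0.3 nM, which was not called.

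The hspa5 gene encodes BiP, the Hsp70 of the endoplasmic reticulum that senses unfolded secretory proteins. It had 142, 121 and 145 CPM in DMSO brains, 107, 105 and 99.2 CPM after 0.3 nM, and 121, 126 and 126 CPM after 1.2 nM. The brains after 0.3 nM lay below all others, and those after 1.2 nM lay within the DMSO range or just under it. The difference at 0.3 nM was 1.31-fold (log2 fold change -0.39, SE 0.08, edgeR adjusted p = 0.0136), and that at 1.2 nM was -0.13 (SE 0.08, 0.305). The first call was lost without replicate 3 of the 0.3 nM group (adjusted p = 0.0526) and in a fit of all 24 libraries (0.0906).

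The genes hspd1 and hspe1 encode Hsp60 and its lid Hsp10, which together form the folding chamber of mitochondria, and they are direct neighbours in the RefSeq annotation. For hspd1 the brains had 116, 107 and 120 CPM after DMSO, 81.9, 87.3 and 79.3 CPM after 0.3 nM, and 103, 101 and 118 CPM after 1.2 nM. For hspe1 the same groups had 42.4, 42.8 and 45.8 CPM, 34.5, 27.4 and 28.4 CPM, and 32.3, 36.1 and 34.5 CPM. At 0.3 nM all brains lay below DMSO for both genes, and at 1.2 nM this held for hspe1 while hspd1 overlapped with DMSO. At 0.3 nM hspd1 fell 1.38-fold (log2 fold change -0.46, SE 0.08, edgeR adjusted p = 0.00876) and hspe1 fell 1.45-fold (-0.54, SE 0.10, 0.00877). The call for hspd1 was lost in a fit of all 24 libraries (adjusted p = 0.0858). At 1.2 nM hspe1 fell 1.27-fold (log2 fold change -0.35, SE 0.09, edgeR adjusted p = 0.0437), and hspd1 was at -0.09 (SE 0.08, 0.527). The 1.2 nM call for hspe1 did not pass in any of the 6 fits without 1 library (adjusted p between 0.0569 and 0.158).

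The heat shock factors differed from each other. Brain levels of hsf1 were 45.6, 50.7 and 42.9 CPM after DMSO, 50.0, 52.3 and 48.6 CPM after 0.3 nM, and 48.7, 47.6 and 47.7 CPM after 1.2 nM. These groups overlapped, and the log2 differences were 0.12 (SE 0.08, edgeR adjusted p = 0.330) and 0.05 (SE 0.08, 0.716). Brain levels of hsf2 were 49.9, 51.4 and 47.9 CPM after DMSO, 40.3, 33.3 and 37.8 CPM after 0.3 nM, and 29.5, 25.9 and 25.3 CPM after 1.2 nM.

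The hsf2 groups did not overlap and stood in the order of dose. The fall was 1.34-fold at 0.3 nM (log2 fold change -0.42, SE 0.09, edgeR adjusted p = 0.0152) and 1.85-fold at 1.2 nM (-0.88, SE 0.09, 0.00426), the latter the fourth smallest p of its comparison. The 1.2 nM call held in every fit that left out 1 library, and the 0.3 nM call was lost without replicate 2 of that group (adjusted p = 0.0564). Counted within a library there were 108 ± 5.39 (SD, n = 3) hsf2 reads per 100 hsf1 reads in DMSO brains, 74.1 ± 9.06 after 0.3 nM and 56.1 ± 4.00 after 1.2 nM, again without overlap.

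**Figure D2:**
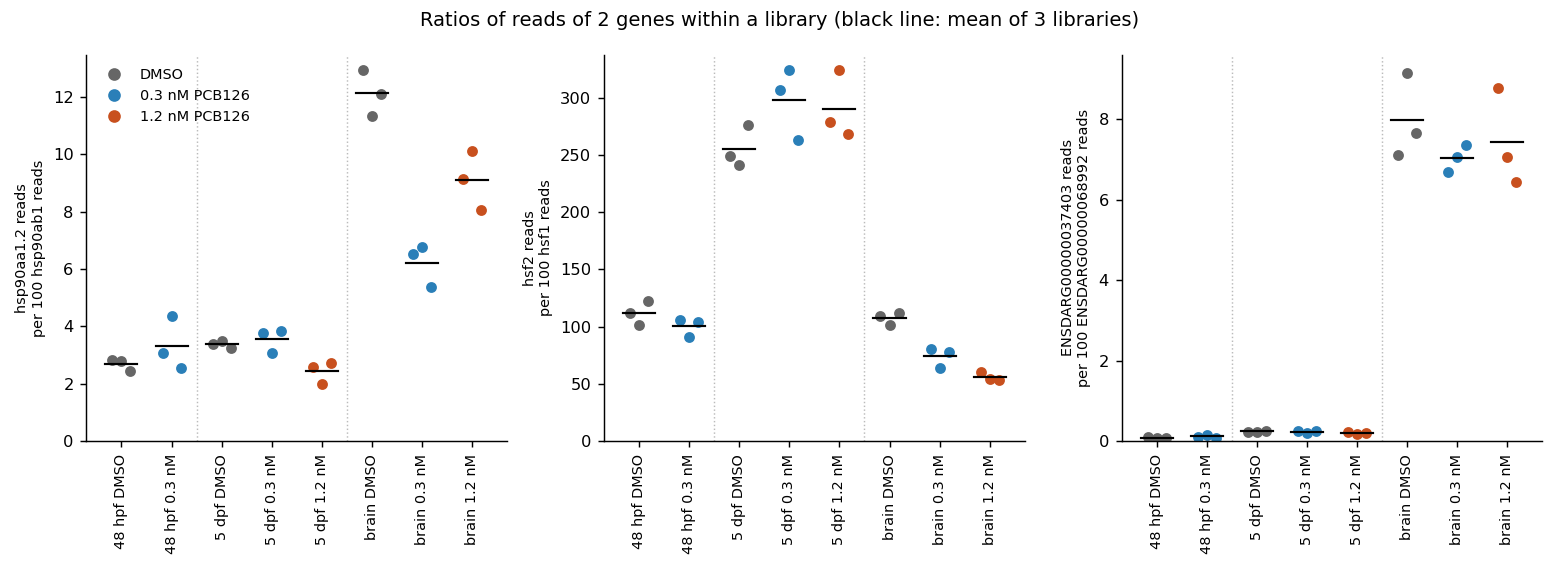
Reads of 1 gene per 100 reads of another in the same library (vertical axes), for 3 libraries in each of 8 groups, with points for libraries and a black line for their mean. In brain, hsp90aa1.2 against hsp90ab1 was lowest at 0.3 nM (6.22) and hsf2 against hsf1 was lowest at 1.2 nM (56.1), while the hspa8 pair overlapped between groups (7.98 in DMSO, 7.04 at 0.3 nM and 7.42 at 1.2 nM).

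The 2 doses thus stood in different orders for different members, and the direct comparison of 1.2 with 0.3 nM brains called none of the 11 with edgeR, where 0.0972% of genes were called. At an unadjusted p under 0.05 there were 6 of 11 members, against 1885 of 19548 genes (9.64%). The chaperones among them were higher at 1.2 than at 0.3 nM, with hsp90aa1.2 at 0.62 (SE 0.12, edgeR adjusted p = 0.123) and hspd1 at 0.38 (SE 0.08, 0.164) on the log2 scale, and hsf2 was lower at -0.46 (SE 0.09, 0.128). DESeq2 called these 3, with adjusted p = 0.000355, 0.00668 and 0.00844. Of all genes 19 were called in the main edgeR fit. Over the 7 alternatives that kept every library of both groups, DESeq2 among them, the number was between 4 and 176. The brains of the 2 doses did not overlap for 6 of the 11 members, against 17.4% of all genes. Among the 6 was hsp90aa1.1, nearly a tie, with a 0.3 nM maximum of 3.45015 CPM and a 1.2 nM minimum of 3.45923 CPM.

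In embryos at 48 hpf none of the 11 members was called at 0.3 nM, where 0.00987% of genes were called, and none had an unadjusted p under 0.05, against 2.59% of all genes. The log2 differences ran from -0.15 for hsp90ab1 to 0.36 for hspa8 ENSDARG00000037403. The latter gene had only 65 to 81 reads per library in DMSO embryos and 70 to 102 in exposed ones. Its exposed replicates 1 to 3 stood 0.13, 0.84 and 0.04 above the DMSO mean on the log2 scale. Exposed replicate 2 stood apart, being the highest of its 3 libraries for 9 of 11 members. In it hsp90aa1.1 had 145 CPM against 57.1 and 52.8 CPM in the other exposed embryos and 65.9, 79.2 and 62.9 CPM in DMSO, and hsp90aa1.2 had 137 CPM against 81.1 and 82.8 CPM. Without that library no member was called either. DESeq2 also called none of the members, nor did a fit that paired libraries by replicate number (the replicate block). The values above come from the fit without pairing.

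In larvae at 5 dpf none of the 11 members was called at 0.3 nM, where edgeR called 0% of genes, and 2 had an unadjusted p under 0.05, against 1034 of 21719 genes (4.76%). These 2 were higher than in DMSO, hsp90aa1.2 by 0.20 (SE 0.09) and hsp90ab1 by 0.12 (SE 0.06) on the log2 scale. No member was called at 1.2 nM, where 0.0460% of genes were called. The log2 differences at 1.2 nM ran from -0.64 for hsp90aa1.1 (SE 0.30, edgeR adjusted p = 0.764) to 0.13 for hsf2. The 1.2 nM larvae did not overlap with DMSO for 4 members, against 12.3% of all genes, counted in both directions together. These 4, hsp90aa1.1, hsp90aa1.2, hspa8 ENSDARG00000037403 and hspa5, lay below DMSO. For hspa5 this was nearly a tie, with a 1.2 nM maximum of 173.405 CPM and a DMSO minimum of 173.452 CPM. Scaled over all 24 libraries its groups overlapped (1.2 nM maximum 169.844 CPM, DMSO minimum 168.931 CPM). At 1.2 nM 1 of the 11 members had an unadjusted p under 0.05, against 6.78% of all genes.

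Larval hsp90aa1.2 was 105, 104 and 98.5 CPM in DMSO, 129, 103 and 122 CPM at 0.3 nM and 81.2, 65.3 and 82.1 CPM at 1.2 nM. The higher dose lay below every other larva, and the lower dose overlapped with DMSO. Against DMSO the log2 difference at 1.2 nM was -0.43 (SE 0.10, edgeR adjusted p = 0.203, DESeq2 0.0322). Against 0.3 nM it was -0.63 (SE 0.09, edgeR adjusted p = 0.0368), which made it the 1 member called in that comparison, where 0.0230% of genes were called and 0.0138% were called lower. This call was lost without 0.3 nM replicate 1 (adjusted p = 0.332), without 0.3 nM replicate 3 (0.317), without 1.2 nM replicate 1 (0.101) and without robust fitting (0.0503). It was also lost with the 2 groups fitted alone (edgeR adjusted p = 0.325) and in a fit of all 24 libraries (0.973). In the brain, by comparison, the 0.3 nM group was the lowest for this gene.

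Single libraries stood apart in larvae. Exposed replicate 2 was the lowest of its 3 libraries for 9 of 11 members at 0.3 nM and for 8 of 11 at 1.2 nM. At 1.2 nM it had 92.9 CPM of hspa5 beside 151 and 173 CPM, 98.5 CPM of hspd1 beside 166 and 174 CPM, and 35.2 CPM of hspe1 beside 55.0 and 55.9 CPM. At 0.3 nM it had 143 CPM of hspa5 beside 192 and 207 CPM. No member was called against DMSO at either dose with these libraries kept, nor with both of them left out. The labels give nothing that sets these libraries apart. Such ranks were not counted over all genes, and they were not particular to larvae. In brain, 0.3 nM replicate 1 was the highest of its 3 libraries for 8 of 11 members.

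**Figure D3:**
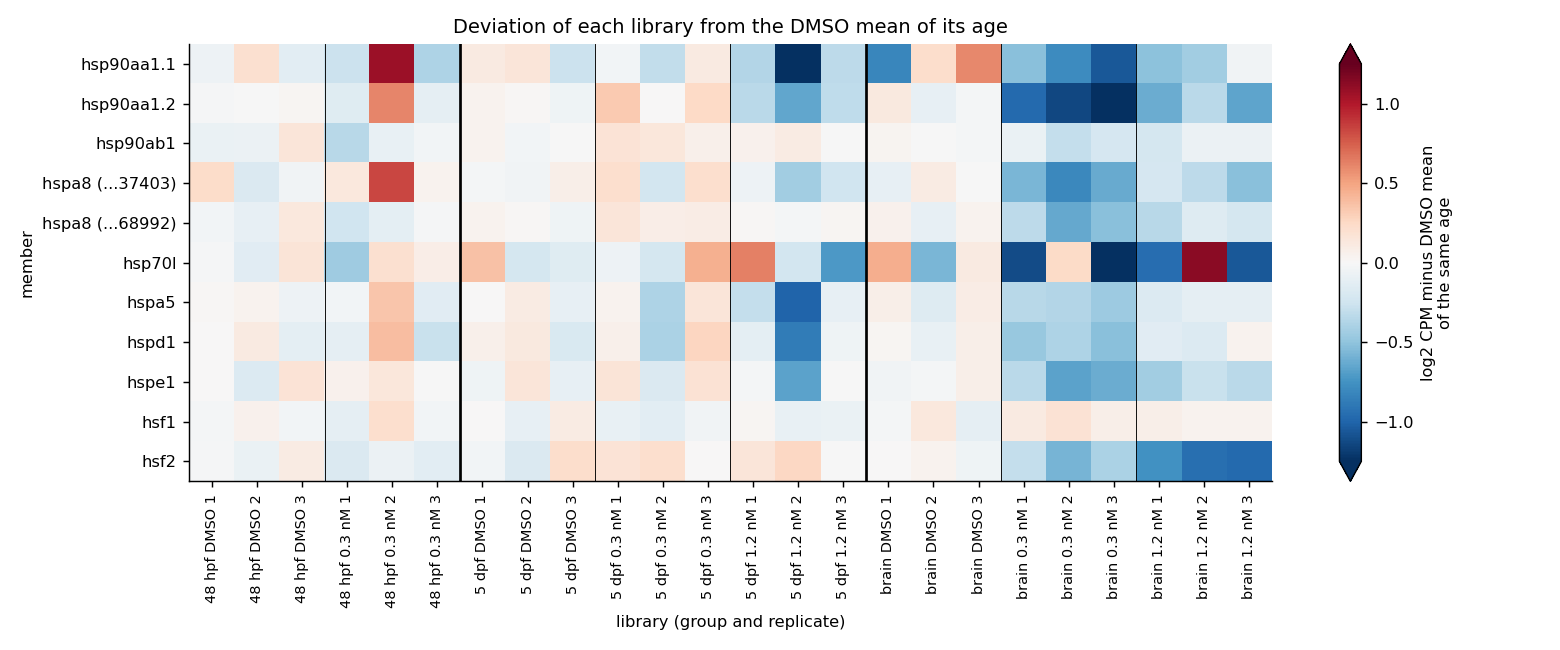
Log2 CPM of each member (rows) in each of the 24 libraries (columns) minus the DMSO mean of the same age, with blue for lower and red for higher; thick lines separate the ages and thin lines the groups. Lower values fill the 0.3 nM brain columns except for hsf1 and 1 library of hsp70l, and single columns stand out in embryos (exposed replicate 2, higher) and larvae (1.2 nM replicate 2, lower).

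The effect of 0.3 nM itself differed between brain and younger fish for some members, tested as an interaction over all 24 libraries. The brain effect minus that at 48 hpf was -1.34 (SE 0.22, edgeR adjusted p = 0.00492) for hsp90aa1.2 and -1.04 (SE 0.23, 0.0252) for hspa8 ENSDARG00000037403, 2 of 11 members where 1.79% of genes were called and 1.29% were called lower. Against 5 dpf, where 5.71% of genes were called and 3.03% were called lower, 4 members passed: hsp90aa1.2 at -1.38 (SE 0.22, edgeR adjusted p = 0.00256), ENSDARG00000037403 at -0.77 (SE 0.20, 0.0266), ENSDARG00000068992 at -0.62 (SE 0.14, 0.0137) and hsf2 at -0.56 (SE 0.14, 0.0195). For 1.2 nM, brain against 5 dpf, hsf2 was the 1 member called at -1.02 (SE 0.14, edgeR adjusted p = 0.000506), where 1.49% of genes were called and 0.985% were called lower, and hsp90aa1.2 was at -0.12 (SE 0.22, 0.814). Between the 0.3 nM effects at 5 dpf and 48 hpf none of the 11 was called with 0% of genes called, and none had an unadjusted p under 0.05, against 3.64% of all genes. Without brain 0.3 nM replicate 2 the adjusted p of ENSDARG00000037403 was 0.0537 against 48 hpf and 0.0686 against 5 dpf, and that of hsf2 at 0.3 nM was 0.0622. ENSDARG00000037403 also lost its call without 48 hpf DMSO replicate 2 (0.0791), and against 5 dpf without 5 dpf DMSO replicate 1 or 2 or 0.3 nM replicate 1 or 3 (0.0643 to 0.0875). The hsf2 call at 0.3 nM was also lost without 5 dpf DMSO replicate 1 or 2 or 0.3 nM replicate 1 or 2 (0.0508 to 0.0636). The number of genes called in these fits ranged, with 1 library left out, from 97 to 976 (404 with all) for brain against 48 hpf and from 540 to 2135 (1288) for brain against 5 dpf at 0.3 nM, and from 63 to 1112 (336) at 1.2 nM. In these comparisons age, tissue and RNA method cannot be told apart.

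Without PCB126 the members also had distinct patterns over age and tissue, described here on a common scale for all 24 libraries. Of the 11 members 4 were called between DMSO larvae and DMSO embryos, where 63.7% of 22545 genes were called, 32.3% higher and 31.4% lower. The hsf2 level rose 1.95-fold, from 34.2, 32.8 and 37.4 CPM to 66.0, 59.5 and 78.3 CPM (log2 fold change 0.96, SE 0.10, edgeR adjusted p = 9.00e-09). The hspa5 level fell 1.97-fold, from 361, 370 and 345 CPM to 182, 195 and 169 CPM (-0.98, SE 0.17, edgeR adjusted p = 2.86e-05). The groups did not overlap for either gene. ENSDARG00000037403 rose 2.42-fold from 4.42 ± 0.652 (SD, n = 3) to 10.7 ± 0.456 CPM, and hsf1 fell by 0.24 on the log2 scale (SE 0.08, edgeR adjusted p = 0.0163). The former rested on 65 to 81 reads per library in these embryos and 144 to 161 in the larvae. The hsf1 call was lost with RLE normalization (adjusted p = 0.10), with DESeq2 (0.125), with the replicate block (0.377), without 48 hpf DMSO replicate 3 (0.132) and without 5 dpf DMSO replicate 2 (0.0825).

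Between DMSO brains and DMSO larvae 10 of 11 members were called, 3 higher and 7 lower, where 77.4% of genes were called, 39.9% higher and 37.5% lower. The hspa8 pair parted: ENSDARG00000037403 rose 11.4-fold, to 114, 129 and 123 CPM (log2 fold change 3.51, SE 0.15, edgeR adjusted p = 3.66e-16), and ENSDARG00000068992 fell 2.88-fold from 4434 ± 163 to 1539 ± 108 CPM. The alpha Hsp90 pair parted too, as hsp90aa1.2 rose 2.27-fold to 227 ± 19.9 CPM and hsp90aa1.1 fell 13.8-fold, from 80.1, 82.4 and 61.3 CPM to 2.86, 5.76 and 7.65 CPM (log2 fold change -3.79, SE 0.42, edgeR adjusted p = 1.99e-07). With the factors, hsf1 rose 1.77-fold (log2 fold change 0.82, SE 0.08, edgeR adjusted p = 2.05e-09) and hsf2 fell 1.35-fold (-0.43, SE 0.10, 0.000295). The remaining called members, hsp90ab1, hspa5, hspd1 and hspe1, fell by 0.66, 0.40, 0.61 and 0.31 on the log2 scale, of which hspe1 lost its call in all 6 fits without 1 library and hspa5 in 4 of them (without replicate 1 or 2 of either group, adjusted p between 0.0545 and 0.148). The hsp70l gene was at 0.75 (SE 0.53, edgeR adjusted p = 0.202).

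**Figure D4:**
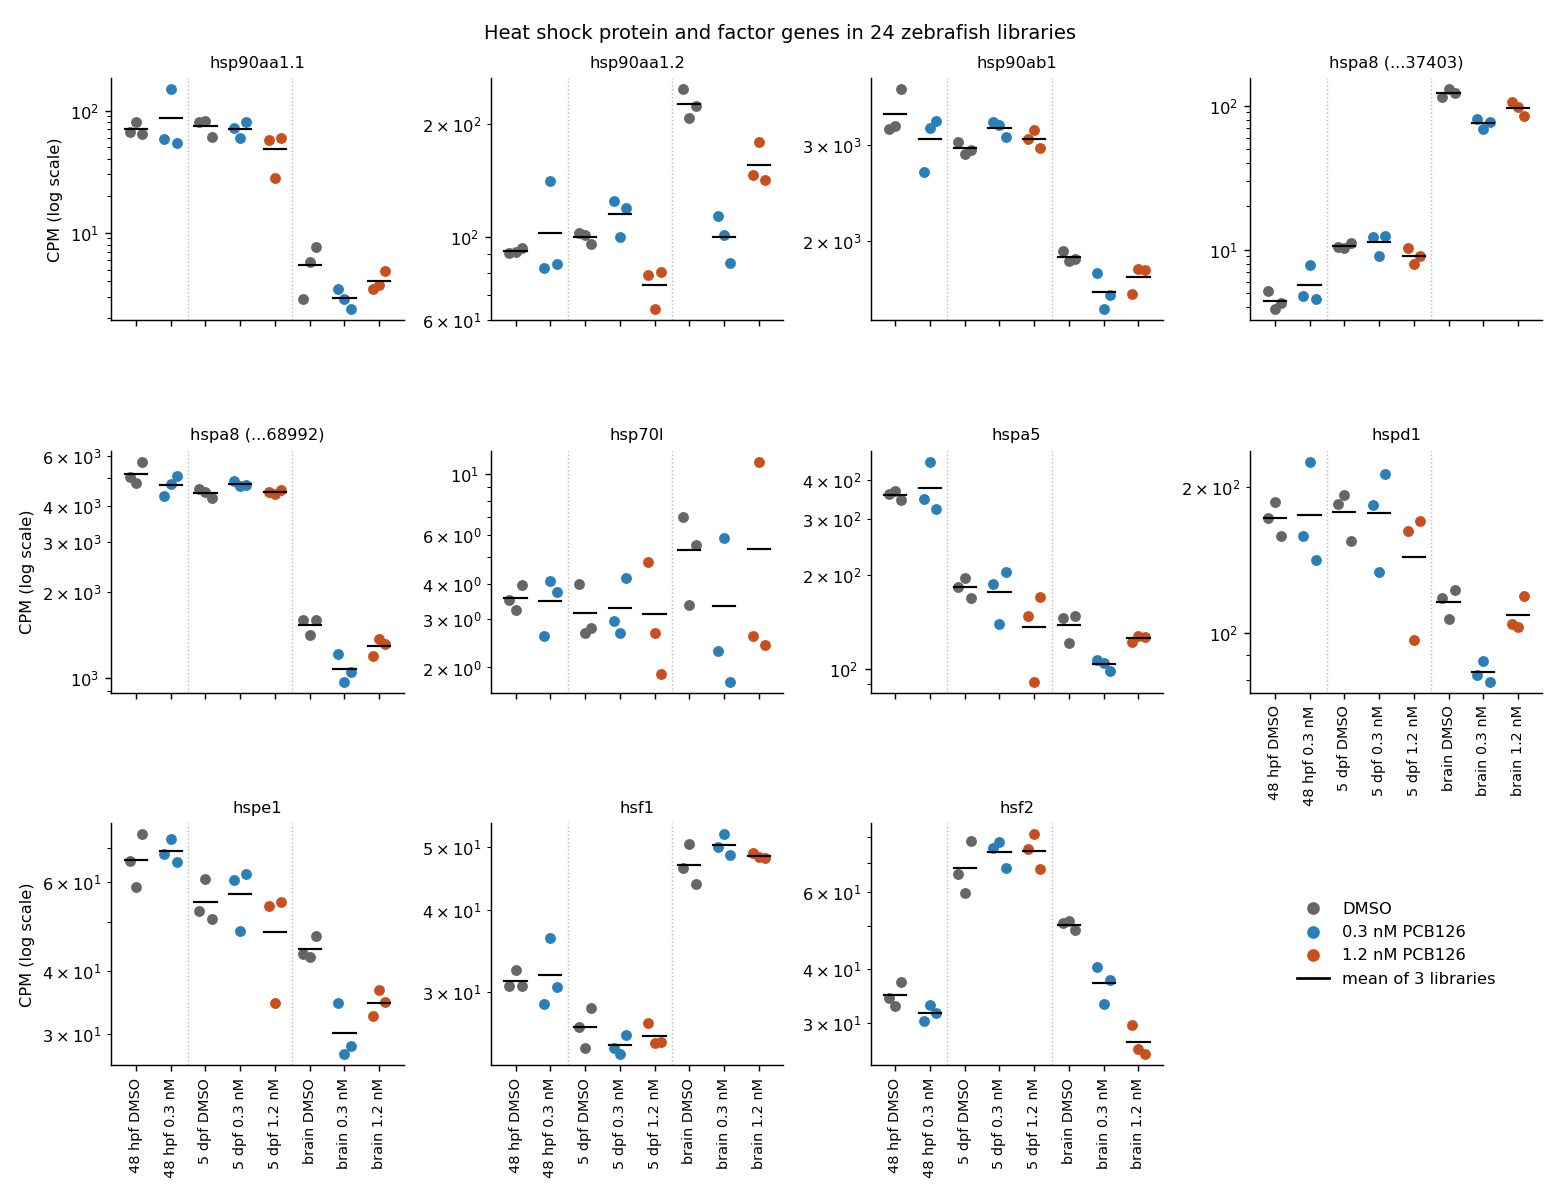
CPM of each member (log vertical axes, which do not start at 0) in the 3 libraries of each of the 8 groups, scaled over all 24 libraries, with a black line at the mean. The brain groups stand far below the younger fish for hsp90aa1.1 and far above them for hspa8 ENSDARG00000037403 (122 CPM in DMSO brains against 4.42 CPM in DMSO embryos), and the hsp70l groups overlap with those next to them in level.

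Over all 8 groups hsp90aa1.2 was highest in DMSO brains (227 CPM on the common scale) and next in 1.2 nM brains (156 CPM), each apart from its neighbour in the order. Brains after 0.3 nM, at 100 CPM, lay among the embryos and larvae and overlapped with their neighbours in the order. The hsf2 gene was highest in the 3 larval groups (67.9 to 74.5 CPM), whose neighbours in the order overlapped, then in DMSO brains (50.4 CPM), and lowest in brains after 1.2 nM (27.2 CPM).

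The genes most like a member were those whose log2 CPM, less their own mean, had the smallest root mean square difference from it over the 24 libraries. For hsp90aa1.1 the nearest was UNC45B (0.42), followed by TMEM38A (0.44) and prob1 (0.44). For hsp90aa1.2 the nearest was FKBP4 (0.24), followed by apof (0.28) and chchd6b (0.29). For ENSDARG00000037403 it was SNAP25 ENSDARG00000020609 (0.28), of a pair with that name, followed by ndrg3a (0.29) and nacad (0.30). For hsp90ab1 it was VDAC3 (0.08), and for hspa5 it was HNRNPAB (0.15), followed by CALU (0.17) and PTGES3 ENSDARG00000089626 (0.17). Over the 9 brain libraries alone the genes nearest to hspa5 were TMEM69 (0.04), CREB3L2 (0.04) and SDF2L1 (0.05). For hsp90aa1.2 the nearest named genes in brain were atp6v0e1 (0.15), STXBP6 (0.16) and COX7A2 (0.17), and not FKBP4. For hsp90aa1.1, hsp90ab1 and ENSDARG00000037403 the nearest in brain were APCDD1L (0.21), AZIN1 (0.03) and tspan37 (0.07). The points share libraries, and most of the spread over 24 libraries lies between ages.

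The wider chaperone network was read from 8 lists with 124 matched genes other than the members. The lists were chosen with earlier results of these data known, and were counted and not tested. In brains after 0.3 nM 34 of the 119 genes tested (28.6%) fell and none rose, against 5.90% of all genes called lower and 7.82% called higher, with a median log2 difference of -0.27 where the median of all genes was -0.02. Among all genes of mean log2 CPM of at least 5, 8.82% were called lower, and list genes were not matched to other genes by level. Each list held called genes, all lower. They were 9 of 27 genes of the endoplasmic reticulum chaperones and unfolded protein response and 7 of 31 co-chaperones of Hsp90 and Hsp70. Next came 5 of 8 genes of TRiC (the cytosolic ring that folds actin and tubulin) and 3 of 16 J proteins (which deliver clients to Hsp70). Also called were 3 of 11 other Hsp70 and Hsp110 genes and 3 of 9 factor family genes and regulators. The rest were 2 of 9 small heat shock proteins and 2 of 8 mitochondrial chaperones. In the TRiC list CCT2 names a pair of genes, and cct6a was not matched. The count moved with single libraries. It was 7 without 0.3 nM replicate 3, 10 without 0.3 nM replicate 2, 12 without DMSO replicate 1, 17 without DMSO replicate 3, 14 when the 2 groups were fitted alone and 21 with the replicate block. The highest count with 1 library left out was 39.

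Among the co-chaperones, STIP1, which bridges Hsp70 and Hsp90, was 78.4 ± 4.85 (SD, n = 3) CPM after 0.3 nM and 101 ± 3.66 CPM in DMSO brains (log2 fold change -0.36, SE 0.07, edgeR adjusted p = 0.0118). PTGES3 ENSDARG00000037284, one of the genes for p23, which stabilizes the closed form of Hsp90, was at -0.53 (SE 0.11, edgeR adjusted p = 0.0136). CDC37, which brings kinases to Hsp90, was at -0.56 (SE 0.12, edgeR adjusted p = 0.0140), and FKBP4, an immunophilin of receptor complexes, at -0.41 (SE 0.09, 0.0180). The immunophilin FKBP5, named here after its values were seen, was 29.6 ± 12.2 CPM in DMSO brains, 6.60 ± 1.37 CPM after 0.3 nM and 35.9 ± 25.6 CPM after 1.2 nM, and was not called at either dose (edgeR adjusted p = 0.0898 and 0.815).

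In the endoplasmic reticulum list, HSP90B1, the Hsp90 of that compartment, fell by 0.45 on the log2 scale (SE 0.08, edgeR adjusted p = 0.00919), and the calreticulin gene calr3a, a lectin chaperone, fell by 0.50 (SE 0.09, 0.00877). HSPA9, the Hsp70 of mitochondria, fell by 0.29 (SE 0.07, edgeR adjusted p = 0.0299). The protease LONP1 fell by 0.43 (SE 0.10, edgeR adjusted p = 0.0215). Of the J proteins dnajb1b fell by 0.83 (SE 0.19, edgeR adjusted p = 0.0210), from 8.0 ± 0.976 to 4.5 ± 1.24 CPM. Of TRiC, TCP1 fell by 0.33 (SE 0.08, edgeR adjusted p = 0.0243). Called genes with another role were the pair SERPINH1 ENSDARG00000019949 and ENSDARG00000075954, collagen chaperones placed in the list of factors and regulators. They were at -1.56 and -0.93. The connective tissue sum was also higher in DMSO brains, and whether the SERPINH1 values go with it was not tested.

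In brains after 1.2 nM 5 of the 119 genes (4.2%) fell, a share near the 3.36% of all genes called lower, and none rose, against 5.69% of all genes. The median log2 difference was -0.12, where that of all genes was -0.03. The 5 were PDIA3 (-0.36), P4HB (-0.32), hsbp1b (-0.43), PTGES3 ENSDARG00000037284 (-0.44) and hspb15 (-0.46) on the log2 scale, with edgeR adjusted p = 0.0318, 0.0357, 0.0274, 0.0357 and 0.0477. The first pair form and shuffle disulfide bonds, and hsbp1b is the zebrafish relative of a mammalian protein that binds heat shock factor 1. The count ranged from 0 to 6 when 1 library was left out, and was 1 with the replicate block, 11 with DESeq2 (9 lower, 2 higher) and 13 in a fit of all 24 libraries (12 lower, 1 higher). It was 0 without DMSO replicate 3 and without any 1 of the 1.2 nM replicates, and 1 without DMSO replicate 1.

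**Figure D5:**
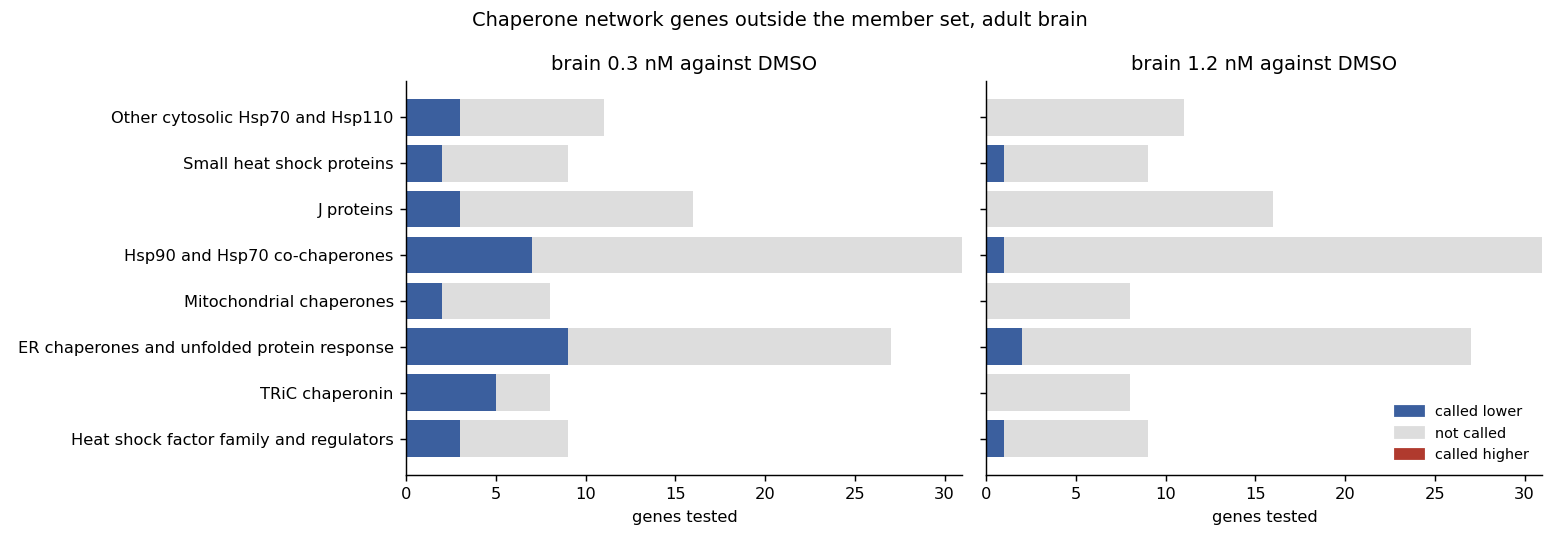
Number of genes tested in each of 8 chaperone lists (horizontal axis, stacked bars), split into those called lower, not called and called higher against DMSO brains, for 0.3 nM (left) and 1.2 nM (right). The blue part totals 34 of 119 genes at 0.3 nM and 5 of 119 at 1.2 nM (against 5.90% and 3.36% of all genes called lower), and no list has a gene called higher.

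In embryos at 48 hpf and in larvae at either dose none of the list genes was called with edgeR, of 120 tested at 48 hpf and 121 at 5 dpf. Of all genes only 0.00987% were called at 48 hpf, and in larvae 0% at 0.3 nM and 0.0460% at 1.2 nM. The larval medians were 0.00 at 0.3 nM and -0.11 at 1.2 nM, and DESeq2 called 1 list gene lower at 1.2 nM. Between DMSO embryos and larvae 78 of 122 list genes were called (63.9%), which is the share over all genes (63.7%), with 17 higher (13.9%) and 61 lower (50%) where 32.3% and 31.4% of all genes were. The genes called lower included all 8 TRiC genes and 21 of 27 endoplasmic reticulum genes (1 higher). They also included 12 of 32 co-chaperones (1 higher) and 6 of 10 factor family genes and regulators (1 higher). The other lists went both ways, with 5 J proteins higher and 7 lower, 3 small heat shock proteins each way, and 3 higher and 2 lower among both the other Hsp70 genes and the mitochondrial chaperones. Among co-chaperones FKBP5 had 3.53 ± 1.67 CPM in embryos and 187 ± 30.8 CPM in larvae (log2 fold change 5.73, SE 0.56, edgeR adjusted p = 1.09e-07). Between larvae and brain 77.0% of list genes were called, 49 higher and 45 lower, against 77.4% of all genes (39.9% higher and 37.5% lower). All 8 TRiC genes fell and 12 of 16 J proteins rose with none lower. The co-chaperones (16 higher, 8 lower), endoplasmic reticulum genes (10 and 12) and small heat shock proteins (3 and 6) went both ways. So did the factor family genes (3 and 6), other Hsp70 genes (4 and 3) and mitochondrial chaperones (1 and 2). A gene of the pair named SMYD1, for a muscle methyltransferase that works with Hsp90, fell from 37.7 ± 3.12 to 0.919 ± 0.913 CPM.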

How the data were processed

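RNA of 24 zebrafish libraries was read as 50-base single-end stranded reads after ribosomal RNA depletion, per the labels. Raw counts per gene, one deposited file per library, were made by the authors with FastQC, STAR, GRCz10 and HTSeq, per the submitters' processing notes, which also name edgeR. The sources used here give no versions or annotation release. Reverse-strand union counting is stated in the names of the files, so a read overlapping several genes goes uncounted, and near-identical copies remain uncertain. Each file lists 32105 genes, of which 26269 received a symbol.

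The analysis used edgeR 4.0.16 under R 4.3.3 (filterByExpr, TMM, a robust quasi-likelihood fit, Benjamini-Hochberg adjustment over all genes). Each age was fitted with all its groups; age comparisons and interactions used 1 fit of all 24 libraries. SE is the size of the log2 fold change over the square root of F. Likeness used log2 CPM with a prior count of 2 and genes of mean log2 CPM of at least 1. From each list the 3 genes of smallest p per comparison could be named. DESeq2 1.42.0, RLE scaling, no filter, no robust fit, other sample sets, single libraries left out and the replicate block were alternatives. The script was tested on simulated data. The members and lists were chosen with earlier results of these data known.

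Replicates differed by more than counting noise (lowest chi-square per degree of freedom 2.51). At 48 hpf libraries with the same number deviated together (correlations 0.288 to 0.396), so the numbers may pair libraries there, which the labels do not state. The main fits ignored this possible pairing, and the replicate block was run only as an alternative. No sequences or coordinates are printed here, because the reference tables are of another build. Gene positions in the RefSeq annotation were used only to find which members are direct neighbours.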

Additional observations from a re-analysis of the deposited data

Results flagged for a closer look

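These results were singled out because the effect of the same dose differed between ages by a test of the difference itself, in 1 edgeR fit of all 24 libraries. For hsp90aa1.2 the 0.3 nM effect was lower in brain than at 48 hpf by -1.34 (SE 0.22, edgeR adjusted p = 0.00492) and lower than at 5 dpf by -1.38 (SE 0.22, 0.00256). For hspa8 ENSDARG00000037403 the corresponding values were -1.04 (SE 0.23, edgeR adjusted p = 0.0252) and -0.77 (SE 0.20, 0.0266), and for hspa8 ENSDARG00000068992 the difference from 5 dpf was -0.62 (SE 0.14, 0.0137). For hsf2 the difference between brain and 5 dpf was -0.56 (SE 0.14, edgeR adjusted p = 0.0195) at 0.3 nM and -1.02 (SE 0.14, 0.000506) at 1.2 nM. The hsf2 result at 1.2 nM and those of hsp90aa1.2 held whenever 1 library was left out. ENSDARG00000037403 lost its call against 5 dpf in 5 such fits (adjusted p up to 0.0875) and against 48 hpf in 2 (up to 0.0791), and hsf2 at 0.3 nM lost its call in 5 (up to 0.0636).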

How the results depend on the processing

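Of the counts of called members, that in brain at 0.3 nM was 7 and ranged from 5 to 8 over all alternatives, with the replicate block at 7, DESeq2 at 7 and the fit of all 24 libraries at 5. In brain at 1.2 nM it was 3, ranged from 1 to 2 without 1 library, and was 2 with the replicate block and 4 with DESeq2. For 1.2 against 0.3 nM in brain it was 0, with 3 in DESeq2 and 1 in the fit of all 24 libraries. For 1.2 nM against DMSO at 5 dpf it was 0, with 1 in DESeq2. For 1.2 against 0.3 nM at 5 dpf it was 1, with 0 without robust fitting, 0 in the fit of all 24 libraries, 0 with the 2 groups alone and 0 to 1 without 1 library. For DMSO larvae against embryos it was 4 and ranged from 3 to 7 without 1 library, the 7 arising without 48 hpf DMSO replicate 2. For the 0.3 nM interactions it ranged from 1 to 2 (brain against 48 hpf) and from 2 to 5 (brain against 5 dpf) without 1 library. The number of all genes called also moved over the alternatives other than leaving out 1 library. In brain it ranged from 1310 to 4120 at 0.3 nM (2683 in the main fit), from 1027 to 3435 at 1.2 nM (1769) and from 4 to 176 for 1.2 against 0.3 nM (19). At 5 dpf it ranged from 0 to 56 for 1.2 nM against DMSO (10) and from 1 to 12 for 1.2 against 0.3 nM (5). No called member changed sign under any alternative run. The cause of these changes was not tested. In brain, and between exposed and DMSO larvae, same-numbered libraries did not deviate together in every pair (correlations down to -0.207). The block there rests on a number alone. Between the larvae of the 2 doses the same-numbered correlations were 0.0742, 0.269 and 0.218, against a mean of -0.0933 for other pairs. Exposed larvae of the same number may thus be paired, which the labels do not state and which was not tested. Low counts limit hsp70l, in brain hsp90aa1.1, and in embryos hspa8 ENSDARG00000037403. Leaving both exposed larval libraries numbered 2 out, and the network counts under all alternatives, were added after seeing the data.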
